A study of Homo sapiens with 4 samples.

Results

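The aldo-keto reductase family 1 was examined through all 15 probes, of 47321 on the array, whose gene symbol in the deposited table was AKR1A1, AKR1B1, AKR1B10, AKR1C1, AKR1C2, AKR1C3 or AKR1C4. Each probe was kept apart, because these genes are close paralogs and a probe may bind the transcript of more than 1 of them. AKR1C2 had 6 probes, AKR1A1 had 3, AKR1C4 had 2 and the other members had 1 each. Expression had been measured on 4 Illumina bead arrays, 1 for each of 4 groups: A549 cells given vehicle, A549 cells with siRNA knockdown of TET1, H1299 cells given vehicle, and H1299 cells with siRNA knockdown of TET1. The controls are described as the parent lines, and no group was replicated. A549 is a human lung adenocarcinoma line, H1299 is a human non-small cell lung cancer line from a lymph node metastasis, and TET1 is an enzyme that starts active DNA demethylation by oxidising methylated cytosine. The design asks what loss of TET1 changes, and the pair of lines also shows how far each member differs between lung cancer cells. The labels name no group with a non-targeting siRNA, so loss of TET1 cannot be told apart from siRNA treatment itself.

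Aldo-keto reductases are soluble enzymes that use NADPH to reduce aldehydes and ketones to alcohols. AKR1A1, aldehyde reductase, and AKR1B1, aldose reductase, act on sugars and small aldehydes, and AKR1B1 begins the polyol pathway by turning glucose into sorbitol. AKR1B10 reduces retinal and reactive lipid aldehydes. The AKR1C enzymes are ketosteroid reductases: AKR1C1 inactivates progesterone, AKR1C2 inactivates dihydrotestosterone, AKR1C3 makes testosterone and prostaglandin F, and AKR1C4 works on bile acid precursors and steroids in liver. AKR1B10 and AKR1C genes are known to be switched on by the transcription factor NRF2, which the adaptor KEAP1 holds in check, and A549 cells are known to carry mutant KEAP1.

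The 4 AKR1C genes lie in a cluster on chromosome 10, AKR1B1 and AKR1B10 on chromosome 7 and AKR1A1 on chromosome 1. The promoters of the AKR1C genes are shown because they display how alike the paralogs are in the regions that control them. Each sequence is the RefSeq window (GRCh38.p14) of 250 bases before to 50 bases after the gene's start, written 5′ to 3′ along the gene, and capitals mark a CCAAT box, read here on the opposite strand as ATTGG. For AKR1C3 the first of its listed starts is shown.
AKR1C1 (chr10:4963165-4963464, + strand): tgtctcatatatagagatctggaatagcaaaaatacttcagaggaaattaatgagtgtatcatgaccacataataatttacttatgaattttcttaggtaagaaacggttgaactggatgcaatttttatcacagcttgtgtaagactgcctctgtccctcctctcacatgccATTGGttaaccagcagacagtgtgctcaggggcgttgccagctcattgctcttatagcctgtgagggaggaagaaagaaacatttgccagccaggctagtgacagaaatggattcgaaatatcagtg
AKR1C2 (chr10:5003808-5004107, - strand): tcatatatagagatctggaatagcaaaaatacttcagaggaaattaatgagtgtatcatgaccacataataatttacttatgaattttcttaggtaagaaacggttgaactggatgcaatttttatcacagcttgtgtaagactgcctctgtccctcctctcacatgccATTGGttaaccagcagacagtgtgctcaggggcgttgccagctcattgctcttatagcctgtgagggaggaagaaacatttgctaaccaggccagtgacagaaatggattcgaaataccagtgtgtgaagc
AKR1C3 (chr10:5048531-5048830, + strand): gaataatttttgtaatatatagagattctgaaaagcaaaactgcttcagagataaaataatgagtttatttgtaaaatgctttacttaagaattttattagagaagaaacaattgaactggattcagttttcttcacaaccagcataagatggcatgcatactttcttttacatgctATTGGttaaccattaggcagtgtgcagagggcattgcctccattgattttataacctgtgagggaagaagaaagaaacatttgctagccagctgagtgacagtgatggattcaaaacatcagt
AKR1C4 (chr10:5196587-5196886, + strand): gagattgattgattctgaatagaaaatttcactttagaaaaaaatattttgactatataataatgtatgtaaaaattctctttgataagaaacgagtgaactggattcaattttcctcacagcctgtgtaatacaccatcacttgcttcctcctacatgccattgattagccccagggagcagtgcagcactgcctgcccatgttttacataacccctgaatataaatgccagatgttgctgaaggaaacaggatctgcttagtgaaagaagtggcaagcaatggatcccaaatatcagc
Aligned with unpaired ends left out, the AKR1C1 and AKR1C2 windows were identical at 288 of 296 positions (97.3%), with 1 unbroken identical run of 245 bases. AKR1C1 shared 76.9% of aligned positions with the AKR1C3 window and 65.3% with that of AKR1C4. A CCAAT box lay at positions -77, -81 and -73 from the start in AKR1C1, AKR1C2 and AKR1C3, and the AKR1C4 window had none. That motif, searched as CCAAT on both strands, was present in 34.6% of 35116 windows of this length. The hexamer TATAAA, also searched on both strands, lay at -26 in AKR1C3 (opposite strand) and -29 in AKR1C4, and in 11.5% of all windows. The antioxidant response element core TGACNNNGC, searched on both strands, was found in none of the 8 windows listed for 6 of the 7 members and in 13.3% of all windows, which says only that these letters are not in these 300 bases. CG dinucleotides, the usual site of DNA methylation, numbered 3 in the AKR1C1 and AKR1C2 windows, 0 in both AKR1C3 windows and 1 in AKR1C4, against 21 in AKR1A1 and 33 and 18 at the AKR1B1 starts. The median over all windows was 14.

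Between 13980 probes (A549 control) and 17107 probes (A549 knockdown) were detected per array, a probe being detected where the array software's detection p was under 0.01. The H1299 control had 16883 detected probes and the H1299 knockdown 14417, so the A549 control and the H1299 knockdown resembled each other in this respect. TET1, the targeted gene, was detected by its probe ILMN_3247163 in both controls alone, with raw signals, control then knockdown as for all pairs of raw signals given here, of 222.1 and 164.5 in A549 and 255.9 and 186.8 in H1299. After normalization the knockdown lay at least 3.14-fold lower in A549 and at least 1.74-fold lower in H1299. These bounds lie near background and rest on the background correction and the floors of single arrays. A second TET1 probe, ILMN_1741056, was detected in the H1299 control alone (raw signal 182) and read 151.2 and 152.2 in A549. Of 6 epithelial markers, 5 were detected on each A549 array and 1, the keratin KRT8, on each H1299 array. Their summed raw signal was 21057.7 and 29302.3 in A549 and 4128.1 and 7684.5 in H1299, with KRT18 not detected on any array, and its part in the differences between the lines was not tested. Endothelial markers were detected on no array. Of the fibroblast markers 1 of 5 was detected, on the A549 knockdown array only, and of the leukocyte markers CD14 alone, on every array.

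Of the 15 member probes, 9 were detected on at least 1 array, 6 on all 4 arrays, and 6 on none. Tests between groups used the 8 probes detected on at least 2 arrays, at least 1 for each of the 7 genes. The AKR1C1 probe entered the test through the A549 arrays alone, so a difference for it was in part set by that filter. Differences between the lines were tested with limma over 17002 probes, with knockdown in the model and 2 arrays per line. The error in that test follows the trend over all probes and measures how unequally the lines responded, since the arrays of a line differ in TET1 state and the labels name no separate cultures.

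The 5 member genes AKR1B1, AKR1B10, AKR1C2, AKR1C3 and AKR1C4 were far higher in A549 than in H1299, by 17.4-fold to 143-fold. Each passed the test on 1 probe, so that 5 of 8 tested member probes were called, all in the direction of A549. Among all tested probes 3.83% were called and 2.55% were called higher in A549. AKR1A1 and AKR1C1 did not pass.

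AKR1B1, aldose reductase, had raw signals of 18440.1 and 30919.5 in A549 and of 1667.1 and 1509.7 in H1299. Both A549 arrays lay above both H1299 arrays. On the normalized log2 scale its mean was 14.59 ± 0.44 (SD, n = 2 arrays) in A549 and 10.47 ± 0.22 in H1299, a difference of 4.12 ± 0.54 (SE), or 17.4-fold (limma adjusted p = 1.38e-11). That call was lost when arrays were centred on their medians in place of quantile normalization (adjusted p = 0.0871, difference 4.13).

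AKR1B10, the retinal reductase, had raw signals of 22600.8 and 35433.7 in A549 and of 412.9 and 271.3 in H1299, detected on all arrays. The lines did not overlap, and the difference of 7.16 ± 0.66 (SE) on the log2 scale, 143-fold, ranked 14 among 17002 probes by how far A549 exceeded H1299 (adjusted p = 3.46e-24). The normalized mean was 14.81 ± 0.38 (SD, n = 2) in A549 and 7.65 ± 0.50 in H1299.

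For AKR1C2, probe ILMN_2412336 read 42786.8 and 43383.2 in A549 and 631.4 and 749.7 in H1299. Its A549 values were the 2nd highest signal of the control array and the highest of the knockdown array, where the top of the scale lay at 43696.6 and 43383.2. The table holds no mark for saturated probes, and a probe at the top of an array cannot rise further after quantile normalization. The difference between the lines was 6.30 ± 0.57 (SE) log2 units, or 78.9-fold (adjusted p = 2.53e-25). The other AKR1C2 probes did not share this pattern: 4 of them were below background on all 4 arrays, and ILMN_3237488 was detected on the A549 knockdown array alone (raw signals 157.4 and 201.2 in A549, 125.2 and 143.2 in H1299). The files give no probe sequences, so which transcript each probe binds was not tested.

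AKR1C3, the reductase that makes testosterone and prostaglandin F, had raw signals of 40385.8 and 37094.5 in A549 and 402.1 and 458.4 in H1299. Its normalized mean was 15.23 ± 0.10 (SD, n = 2) in A549 and 8.18 ± 0.34 in H1299. The difference was 7.05 ± 0.61 (SE) log2 units, or 132-fold (adjusted p = 4.12e-27). Like AKR1C2 it lay near the top of the A549 scale, with the 7th highest signal of the control array.

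AKR1C4, known as a liver enzyme, had on probe ILMN_1687757 raw signals of 2253.3 and 7576.8 in A549 and of 189.6 and 157.8 in H1299, the last not detected. Both A549 arrays lay far above both H1299 arrays. The lines were 6.56 ± 0.99 (SE) log2 units apart (adjusted p = 7.90e-09), or 67.8-fold with the undetected array held at its floor, the lowest normalized value of a detected probe on that array. With median centring the call was lost (adjusted p = 0.116) at a difference of 6.51, and on the deposited values the difference was 3.78 log2 units and was called. A second AKR1C4 probe, ILMN_1668880, was below background on all 4 arrays, at raw signals from 126.3 to 172.4. Of 4 hepatocyte marker genes, 0 were detected in the A549 control and 2, ALB and SERPINA1, on each of the other arrays, and their summed raw signal was 1181.9 and 1231.3 in A549 and 1241.8 and 1565.4 in H1299.

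AKR1C1, which inactivates progesterone, was read by 1 probe alone, and that probe was dim on every array. How well it reports the AKR1C1 transcript, and whether the bright AKR1C2 probe also binds that transcript, was not tested. The AKR1C1 probe read 197.9 and 230.9 in A549, detected on both arrays, and 137.1 and 136.8 in H1299, detected on neither. With the H1299 arrays at their floors A549 exceeded H1299 by at least 1.69-fold, a bound that depends on the background correction: as read, the difference was 0.63 log2 units without that correction and 0.23 on the deposited values. The fitted difference of 1.81 ± 0.86 log2 units did not pass (unadjusted p = 0.0352, adjusted p = 0.394). Without the A549 control array it did (adjusted p = 0.026), but in that fit, which has no knockdown term, the spread comes from the H1299 arrays, on which the probe was not detected.

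AKR1A1, aldehyde reductase, was the member detected at a comparable signal in both lines. Probe ILMN_1728047 read 861.8 and 1941.3 in A549 and 1072.8 and 945.6 in H1299, and the lines overlapped in raw signal. Probe ILMN_2380771 read 1873.4 and 2490.8 in A549 and 1269.5 and 2380.1 in H1299, again with overlap. After normalization both A549 values lay above both H1299 values on each probe, for ILMN_1728047 by as little as 9.90 against 9.88. A549 exceeded H1299 by 0.54 ± 0.80 (SE) and 0.51 ± 0.70 log2 units on these probes, and neither difference passed (adjusted p of both 0.9999). The third AKR1A1 probe was below background on all arrays.

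**Figure D1:**
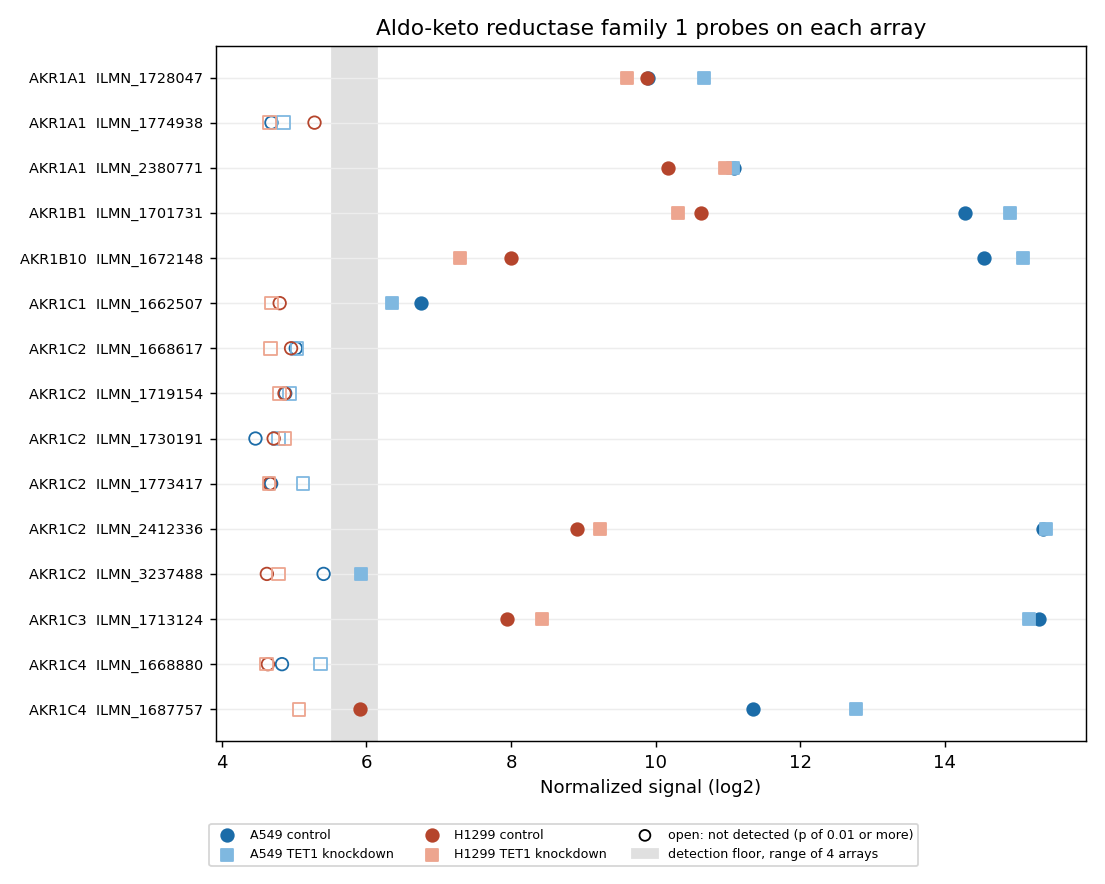
Normalized signal (log2, x axis) of each of the 15 member probes (rows) on the 4 arrays, circles for controls and squares for TET1 knockdowns, filled where detected and open where not; the grey band spans the detection floors of the arrays. AKR1B1, AKR1B10, AKR1C3 and the bright AKR1C2 and AKR1C4 probes show both A549 arrays far to the right of both H1299 arrays, while the AKR1A1 probes of both lines lie close together.

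The gap between the lines was present with and without TET1 knockdown. Between the controls AKR1B1 was 12.6-fold higher in A549, AKR1B10 93.0-fold, AKR1C2 87.0-fold, AKR1C3 164-fold and AKR1C4 43.2-fold. Between the knockdowns the corresponding values were 24.0-fold, 221-fold, 71.6-fold, 107-fold and, for AKR1C4, at least 107-fold. AKR1B1, AKR1B10 and AKR1C4 were thus further apart in the knockdowns and AKR1C2 and AKR1C3 less so, a difference that these single arrays cannot test. With undetected arrays held at their floors, these 5 of the 8 member probes detected in either line in each state were at least 2-fold higher in A549 in both states, against 6.09% of 16833 probes. With undetected values taken as read AKR1C1 would make a sixth (7.50% of probes), although in the knockdowns its bound is only 1.25-fold. Between the A549 knockdown and the H1299 control alone the same 5 probes, at floors, were 2-fold higher (12.0% of all probes), and likewise between the A549 control and the H1299 knockdown alone (12.0%); these pairings were added after the data were seen.

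**Figure D2:**
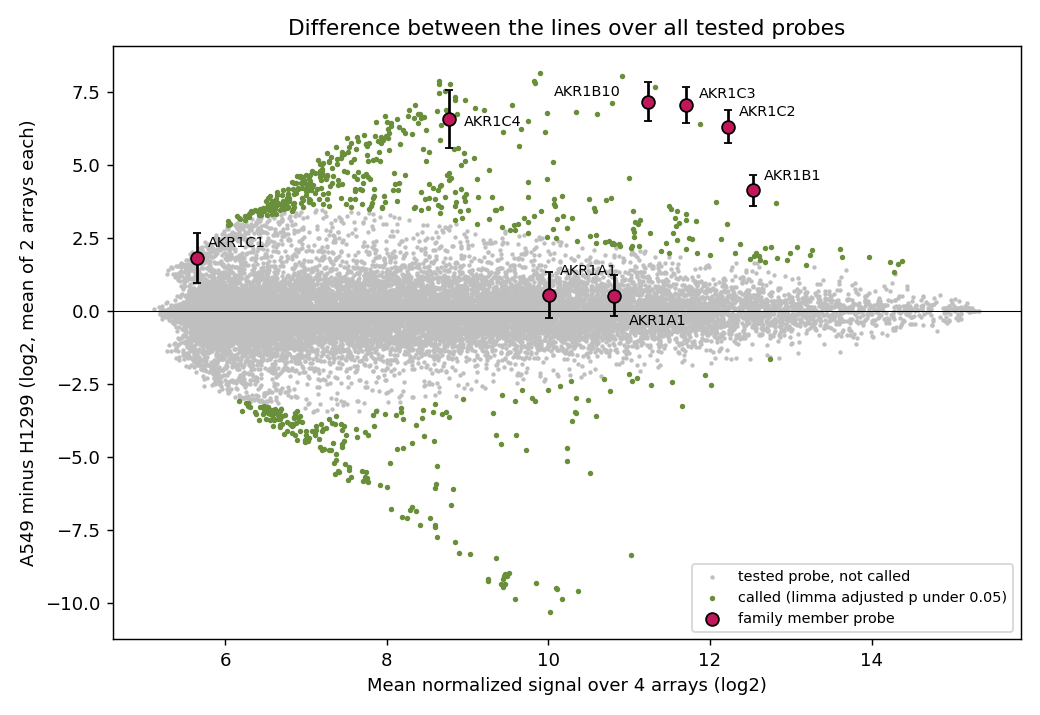
A549 minus H1299 on the log2 scale (y axis, mean of 2 arrays each) against mean normalized signal over the 4 arrays (log2, x axis) for the 17002 tested probes, with member probes as large points and their standard errors as bars. AKR1B10 and AKR1C3 lie at 7.16 and 7.05, among the highest probes of their signal level, and the AKR1A1 probes at 0.54 and 0.51, within the cloud of probes not called.

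No member passed the test of TET1 knockdown across both lines. In the limma test of knockdown against control with the line as a block, 0 of 8 member probes passed and 0 had an unadjusted p under 0.05, while 1 of 17002 probes passed (0.00588%). Mean changes over the lines ran from -0.25 ± 0.86 (SE) for AKR1C1 to 0.39 ± 0.70 for AKR1A1 probe ILMN_2380771 on the log2 scale. The error of this test is the unequal response of the lines, taken from the trend over all probes. A miss thus does not show that a member stayed constant.

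Within a line there was 1 array per state and hence no test. In A549, 1 of the 9 member probes detected there differed at least 2-fold, against 22.0% of 17579 probes. It was the bright AKR1C4 probe, 2.67-fold higher in the knockdown (raw signals 2253.3 and 7576.8), as 13.6% of probes were higher. AKR1A1 was 1.70-fold higher on ILMN_1728047 and 1.01-fold lower on ILMN_2380771, and with median centring both were higher, by 1.19 and 0.33 log2 units. AKR1B1 was 1.54-fold and AKR1B10 1.46-fold higher in the knockdown. AKR1C2 was 1.03-fold higher and AKR1C3 1.10-fold lower, both among the brightest probes, and whether their changes were compressed was not tested. AKR1C1 was 1.32-fold lower by normalized values (-0.40 on the log2 scale) although its raw signal was higher in the knockdown, and with median centring its change was 0.32.

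In H1299, 0 of 7 member probes differed at least 2-fold, against 36.0% of 17747 probes. AKR1B10 was 1.63-fold lower in the knockdown (raw signals 412.9 and 271.3), AKR1B1 1.24-fold lower and AKR1A1 probe ILMN_1728047 1.21-fold lower. In the other direction AKR1A1 probe ILMN_2380771 was 1.73-fold higher, AKR1C3 1.39-fold higher (raw signals 402.1 and 458.4) and AKR1C2 1.25-fold higher. AKR1C4 was not detected in the knockdown (raw signals 189.6 and 157.8), too near background for a fold.

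Of the 6 member probes detected on all 4 arrays, 5 read in opposite directions in the lines, as did 79.7% of all 11894 such probes, so the members followed the common pattern of these arrays. AKR1B1, AKR1B10 and ILMN_1728047 of AKR1A1 were higher in the A549 knockdown and lower in the H1299 knockdown, the direction of 26.6% of those probes. AKR1C3 and ILMN_2380771 of AKR1A1 ran the other way, like 53.1%. The A549 control and H1299 knockdown arrays, which had the fewest detected probes, stand on opposite sides of these comparisons, and their part in the result was not tested. With median centring 58.5% of all such probes opposed each other, as did 5 of 6 member probes, AKR1C2 (-0.08 and 0.42) now among them and ILMN_2380771 of AKR1A1 (0.33 and 1.11) no longer. The median change of tested probes was -0.09 in A549 and 0.22 in H1299, and 0.37 and 0.28 with median centring.

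**Figure D3:**
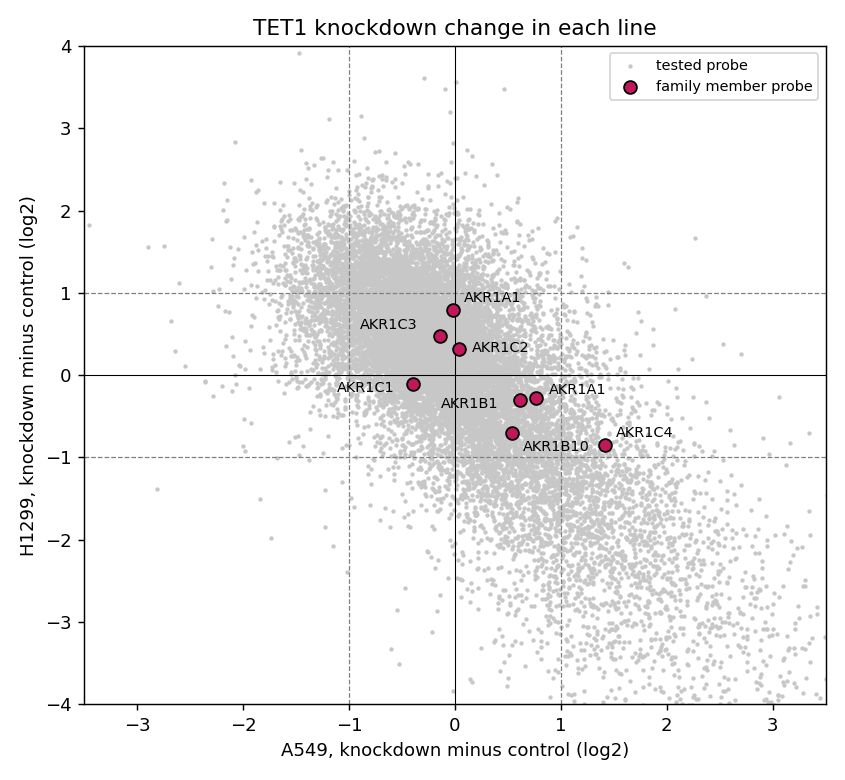
Knockdown minus control on the log2 scale in A549 (x axis) and H1299 (y axis) for tested probes (grey) and member probes (large points), 1 array per group, with dashed lines at 2-fold and 211 probes outside the axes. Member probes lie inside the 2-fold lines apart from AKR1C4 at 1.42 in A549, within a cloud that slopes from upper left to lower right.

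Other genes of carbonyl, steroid, prostaglandin and redox metabolism were read from lists of genes, by probe. The lists were chosen with earlier results of these data known. Of all tested probes, 2.55% were called higher in A549. Among other aldo-keto reductases 1 of 5 tested probes was called higher in A549 and 0 higher in H1299. It belonged to AKR1B15, the neighbour of AKR1B10 on chromosome 7, with raw signals of 11168 and 21296.6 in A549 and 210.7 and 169.2 in H1299, the last not detected. The order of its arrays was that of AKR1B10, and its fitted difference was 8.15 log2 units, or 7.82 with the undetected array at its floor (limma adjusted p = 1.60e-20). Whether the AKR1B10 and AKR1B15 probes bind each other's transcripts was not tested. The aflatoxin aldehyde reductases AKR7A2 and AKR7A3 did not differ past the threshold between the lines (-0.04 and -0.16 log2 units).

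Of the NRF2 system, 12 of 39 tested probes were called higher in A549 and 0 higher in H1299, with a median difference of 1.39 log2 units against -0.05 over all tested probes. The glutathione peroxidase GPX2 was higher by 6.74 fitted log2 units and the transporters ABCC3 and ABCC2 by 6.22 and 5.51. NFE2L2, the gene of NRF2 itself, did not pass (0.10 log2 units), nor did the KEAP1 probes (-0.41 and -0.59). GPX2 and ABCC2 were not detected in H1299, and the differences held at the floor were 5.96 and 4.98. Over all 17002 tested probes, 2226 read higher in the knockdowns of both lines and 1546 lower in both. The other 13230 read in opposite directions or were unchanged in a line. Of the 39 NRF2 probes, 27 read in opposite directions and 12 higher in both. Among the latter HMOX1, NQO1 (ILMN_2354953) and GCLC (ILMN_2215194) were higher by 2.37, 1.64 and 1.20 log2 units in A549 and 0.96, 1.31 and 1.54 in H1299, and none of them passed across the lines. In H1299 this NQO1 probe read 237.7 and 357.7 and this GCLC probe 175.2 and 258.5. These signals are dim, so the changes rest in part on the background correction. The bright NQO1 probe, ILMN_1720282, was higher by 0.17 and 0.58. A second GCLC probe, ILMN_1730575, was higher in the A549 knockdown by 1.09 and lower in the H1299 knockdown (-0.63).

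Among genes of prostaglandin synthesis and breakdown, which AKR1B1 and AKR1C3 join as prostaglandin F synthases, 5 of 11 tested probes were called higher in A549, 0 higher in H1299, and the median difference was 3.01. They were HPGD, which oxidises prostaglandins, at 6.04 fitted log2 units (4.94 with the undetected H1299 arrays at their floors), the cyclooxygenase PTGS2 (ILMN_2054297, 16-fold), the prostaglandin E synthase PTGES at 3.66 and both probes of the reductase PTGR1 at 3.58 and 3.01. PTGS2 read 1514.3 and 2691.7 in A549 and 233.5 and 279.8 in H1299, while its dimmer probe did not pass (3.24 log2 units, adjusted p = 0.073). PTGES, not detected in the H1299 control, read higher in both knockdowns, by 4.23-fold in A549 and at least 1.42-fold in H1299, without passing across the lines.

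The short-chain carbonyl reductases had 2 of 16 tested probes called higher in A549 (median 1.01), among them the retinal reductase DHRS3 at 4.33 log2 units. Steroid and retinoid oxidoreductases had 0 of 21 called in either direction (median 0.13), the largest difference being 1.16 for the retinol dehydrogenase RDH14. In polyol and glucuronate metabolism UGDH, which makes UDP-glucuronate, was higher in A549 by 2.98 and the galactosyltransferase UGT8 was higher in H1299 (-3.38, or -2.33 with the undetected A549 arrays at their floors), 1 of 10 probes in each direction; the UGT8 call was lost under each other scaling or background setting. Sorbitol dehydrogenase SORD, the step after AKR1B1, differed by -0.28. Knockdown was called for 0 probes of any of these lists. With median centring, the AKR1B15 probe alone among these lists was still called between the lines. The prostaglandin list had 4 called probes without background correction, with an offset of 50 and on the deposited values. The short-chain list had 1 without background correction and on the deposited values, and the NRF2 list had 10 on the deposited values.

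**Figure D4:**
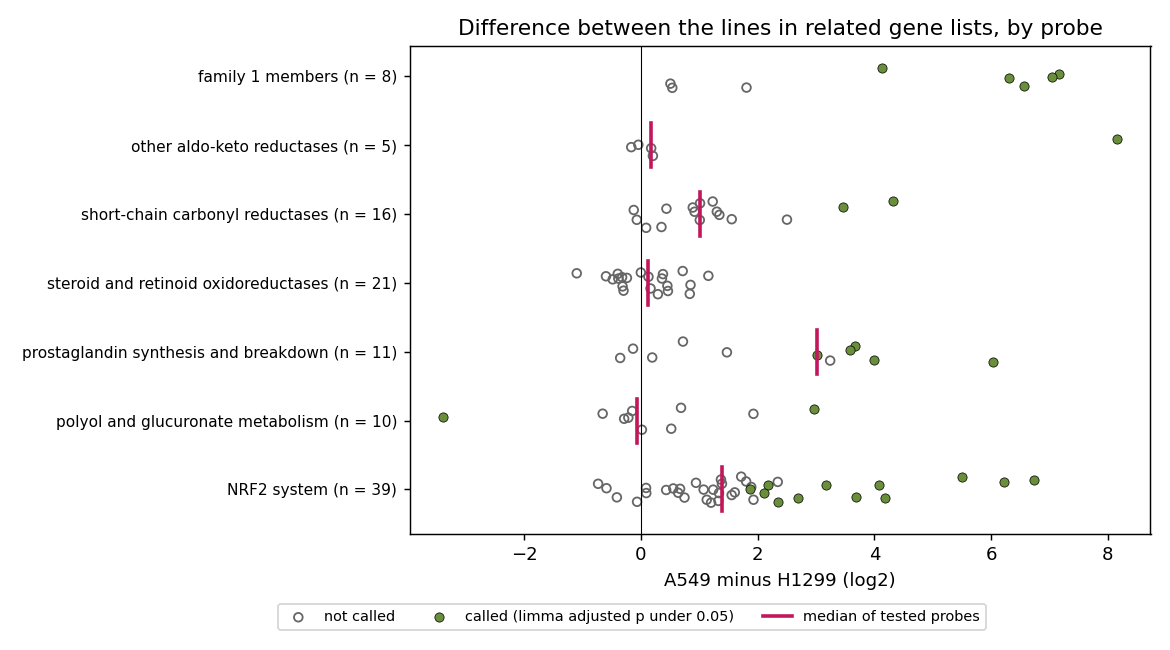
A549 minus H1299 (log2, x axis) for each tested probe of the family and of the related gene lists (rows), filled where called by limma at an adjusted p under 0.05, with the list median as a bar for the lists. Called probes of the NRF2 and prostaglandin lists lie to the right of 0, as do the 5 called family probes, and no steroid and retinoid probe is called.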

How the data were processed

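Total RNA of 4 samples was labelled as biotinylated cRNA with an Ambion MessageAmp kit, per the labels' protocols, and read on 1 Illumina array each. The deposited table holds a bead signal intensity per probe, neither background-subtracted nor normalized, and a detection p-value, per the file headers. A second deposited table holds the authors' processed values, close to a log2 scale. The submitters' processing notes name lumi for them, without a version or the transformation used, and they served as an alternative. All per-sample columns matched a sample.

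Intensities were background-corrected with negative-control moments inferred from detection p, given an offset of 16, quantile normalized and log2 transformed (neqc, limma 3.58.1, R 4.3.3). Probes detected at p under 0.01 on at least 2 arrays were fitted with line and knockdown as terms (lmFit, eBayes with an intensity trend, two-sided, Benjamini-Hochberg at 0.05, 1 residual degree of freedom, prior degrees of freedom infinite). The fit was tested on simulated data in which 200 of 17002 probes differed between the lines. It recovered 1% of 2-fold, 13.4% of 4-fold, 74.8% of 16-fold and 98.9% of 64-fold differences. A miss between the lines thus does not show equal levels. With infinite prior degrees of freedom the error of each probe is the trend over all probes, not that probe's own spread. P-values rest on these samples only, and the number of arrays limits precision. For AKR1C3 the limma adjusted p of 4.12e-27 was 0.00268 with line alone in the model and 0.0307 with median centring. Undetected sides were held at the array's floor, the lowest value among its detected probes. Within a line there is no test, and a probe counted as different at 2-fold if detected on at least 1 array.

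The members and gene lists were chosen with earlier results of these data known. Named genes are every member probe, TET1, from each list up to 4 probes with the largest line difference and 3 with the largest shared knockdown change, and the 5 genes nearest in profile to AKR1B10 and to the brightest AKR1C probe. Probes of NFE2L2, KEAP1, KRT8, KRT18, ALB, SERPINA1 and CD14, and further called probes of lists, were named after their values were seen. Values of some probes that these rules name are not reported here. Older list symbols were matched to current ones with the RefSeq gene table (GRCh38.p14), and RefSeq promoter windows gave the sequences. Alignment used Biopython 1.88, and figures matplotlib 3.10.9. Alternatives covered scaling, background, offset, deposited values, filters, model terms and single arrays left out.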

Additional observations from a re-analysis of the deposited data

Results flagged for a closer look

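For 6 of the 7 member probes detected at least once in each line, the knockdown change as read had opposite signs in the lines. So did 77.7% of all 17002 tested probes. With 1 array per group the difference between the lines was not tested. For AKR1C4 (ILMN_1687757) the change as read was 2.26 log2 units greater in A549, but the probe was undetected in the H1299 knockdown. With that array at its floor, the direction of its change in H1299 is not determined. The change in A549 exceeded that in H1299 by 1.25 log2 units for AKR1B10, by 1.04 for AKR1A1 (ILMN_1728047) and by 0.93 for AKR1B1. It was below that in H1299 for the other AKR1A1 probe (ILMN_2380771, -0.81) and for AKR1C3 (-0.62). The A549 change of ILMN_2380771 was only -0.018, and with median centring it was 0.33, the direction of H1299 (1.11), so its signs no longer opposed.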

How the results depend on the processing

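AKR1B10, AKR1C2 and AKR1C3 were called higher in A549 under all 9 alternatives tried for them (log2 differences 6.20 to 7.52, 5.98 to 6.46 and 6.43 to 7.28), AKR1B1 and AKR1C4 under 8 of 9 (3.81 to 4.43 and 3.78 to 7.27), AKR1C1 under 1 of 9 (0.23 to 2.01), and the AKR1A1 probes under none. Leaving out each array in turn gave 5 to 6 called member probes and 628 to 803 called probes in all; these fits hold line alone, set 1 array against 2 and assume that the lone array varies like the other line, and the sixth probe is AKR1C1, undetected in H1299. With median centring in place of quantile normalization, 3 member probes and 32 probes in all differed between the lines (11 higher and 21 lower in A549, against 433 and 218). The prior degrees of freedom fell to 4.03, and 0 probes passed for knockdown. In that setting 2 of 9 member probes in A549 differed 2-fold, against 26.4% of all detected probes. In H1299 it was 1 of 7, against 37.7%. On the deposited values 258 probes differed between the lines (180 higher in A549). With no block for line, which is the pairing of control and knockdown here, 0 probes passed for knockdown. The mean knockdown change reversed for AKR1C1 with median centring (0.095) and for AKR1B10 with no background correction (0.067) and on the deposited values (0.19); the cause was not tested. Splits of probes past 2-fold were 2399 higher and 1466 lower in the A549 knockdown, and 4416 and 218 with median centring. The labels number no replicates, and with 1 array per group no replicate of knockdown or control could be left out within a line. The 6 member probes below background on every array carry no measurable difference.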

Other observations

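AKR1D1, a liver steroid reductase of the same enzyme superfamily, was bright on 1 probe and not detected on the other. Probe ILMN_2157277 read, control then knockdown, 15210.2 and 14235.1 in A549 and 10863.2 and 16541.7 in H1299, while ILMN_1692661 was below background on all 4 arrays. The bright probe did not pass the test between the lines (0.21 log2 units, limma adjusted p = 0.9999).

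The genes whose profile over the 4 arrays lay nearest to AKR1B10, by the root mean square difference of mean-centred log2 values among tested probes, were CRIP1 (0.116), S100A4 (0.253), KRT7 (0.264), TM4SF4 (0.292) and MLPH (0.327). Nearest to the bright AKR1C2 probe were RBM47 (0.0435), SPP1 (0.108), RPS4Y1 (0.114), LXN (0.137) and ABCC3 (0.143). Among members, AKR1C4 was nearest to AKR1B10 (0.433) and AKR1C3 to AKR1C2 (0.381). Both H1299 values were below detection for S100A4, KRT7, TM4SF4, MLPH, RBM47, SPP1 and LXN, and 1 for CRIP1, so those distances and their order rest in part on values near background. With 4 arrays of 2 lines, nearness mostly describes how far the lines lie apart.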
